A study of Mus musculus with 36 samples.

Results

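The WNT pathway genes examined in mouse articular cartilage were the ligands Wnt5a and Wnt16, the co-receptors Lrp5 and Lrp6, the secreted inhibitors Frzb and Wif1, the Dickkopf family member Dkk3, the transcription factors Tcf7l1 and Lef1, and Axin2, which is both a feedback inhibitor and a target of the pathway. They were chosen by name. For RNA, each gene was read from the RefSeq transcript with its highest mean count over the 12 libraries, which gave 10 of the 30048 transcripts counted. For DNA methylation, the members were the covered CpG cytosines between 5 kb before and 5 kb after each gene. These were 1608 of the 1444973 cytosines tested at 4 weeks and 1340 of the 1273121 tested at 12 weeks.

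WNT proteins are secreted ligands that bind Frizzled receptors together with the co-receptors LRP5 and LRP6. In the canonical branch this protects β-catenin from a destruction complex built on AXIN proteins, and β-catenin then acts with TCF/LEF factors on target genes such as Axin2, whereas Wnt5a is best known for β-catenin-independent signaling. In joint cartilage, excess canonical signaling is known to drive chondrocyte hypertrophy and matrix loss, and secreted antagonists such as FRZB and WIF1 hold the ligands in check.

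In male C57BL/6J mice the medial meniscus of the right knee was destabilized by surgery (DMM) at 12 weeks of age. DMM cuts the ligament that anchors the medial meniscus and is used to model post-traumatic osteoarthritis (OA). Articular cartilage was microdissected from the tibia and femur of DMM-operated knees and of the unoperated left knees of the mice (controls), 4 or 12 weeks after surgery. Each library held pooled cartilage of 3 knees, and there were 3 control and 3 DMM libraries at each week for RNA-seq and, from other mice, 3 and 3 for oxidative bisulfite sequencing. An unoperated limb of an injured mouse is not the limb of an uninjured or sham-operated one. The labels and methods do not say whether control and DMM pools with the same number share mice. Nor do they say whether the pools are independent in other respects. P-values from tests across libraries therefore measure only the spread between these libraries. The main test of single cytosines pools the reads of a limb, and its p and q carry no spread between libraries.

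RNA totals ranged from 27706547 to 62737656 counts per library, and replicates of a group differed well beyond counting error. All 20 chondrocyte markers examined, such as the aggrecan gene Acan and the type II collagen gene Col2a1, were detected and tested at both weeks. Transcripts of other tissues were present too, and some of them moved with the limb. At 4 weeks the summed level of 12 skeletal muscle markers ranged from 5556 to 20710 CPM (counts scaled to library size with TMM) in control libraries and from 583 to 3352 CPM in DMM libraries, and the log2 fold change (DMM against control) of the 20 chondrocyte markers had a median of -0.80 with 16 of them lower in DMM. At 12 weeks all 20 chondrocyte markers were higher in DMM (median 0.47), with summed levels of 20142 to 58916 CPM in control and 37069 to 61153 CPM in DMM libraries. The muscle markers overlapped fully then, at 86.2 to 13231 CPM in control and 484 to 9644 CPM in DMM libraries. The 7 fibroblast and synovium markers were higher in DMM for 6 genes at both weeks, with summed levels of 91.6 to 255.7 CPM (control) and 397.7 to 558.8 CPM (DMM) at 4 weeks and of 90.5 to 120.9 CPM and 142 to 245.2 CPM at 12 weeks. Of the 10 osteoblast and osteocyte markers 8 were higher in DMM at 4 weeks, with summed levels of 6642 to 7215 CPM (control) and 8755 to 11220 CPM (DMM). Their summed levels overlapped at 12 weeks. Markers of blood cells were lower in DMM at 12 weeks, 8 of 8 for neutrophils (25060 to 42460 CPM in control, 20100 to 33100 CPM in DMM), 7 of 7 for erythroid cells (8864 to 12320 and 6354 to 10800 CPM) and 9 of 10 for lymphocytes (229.8 to 279.9 and 147.1 to 231.6 CPM). No defining marker of these lists was at 0 in a library. The part these shifts had in any result below was not tested. In bulk tissue, fewer cells that express a gene and less RNA per cell cannot be told apart.

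The secreted inhibitors were by far the most abundant of the 10 transcripts. Per kilobase of transcript, the mean level in control cartilage at 4 weeks was 640 ± 245 CPM per kb for Wif1 (mean ± SD, n = 3 in each group throughout), 87.3 ± 39.5 for Frzb and 18.5 ± 10.4 for Dkk3. The libraries of these 3 genes did not overlap each other, and all lay above those of the remaining 7. Tcf7l1 (4.07 ± 1.02 CPM per kb), Wnt16 (2.58 ± 1.25), Lrp6 (2.34 ± 0.408) and Lef1 (2.07 ± 0.436) followed, and neighbours in that order did not differ beyond their spread. Lrp5, at 1.28 ± 0.272 CPM per kb, did not overlap Lef1. Wnt5a (0.382 ± 0.0677) and Axin2 (0.295 ± 0.102) were the lowest and overlapped each other. In DMM cartilage at 12 weeks Wif1 (630 ± 150 CPM per kb), Frzb (81.2 ± 14.0) and Dkk3 (19.4 ± 7.32) again led, followed by Wnt16 (4.62 ± 0.828) and Tcf7l1 (3.80 ± 0.534), and Axin2 (0.277 ± 0.103) was again last. The plot of levels by library shows the values behind each comparison.

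**Figure D1:**
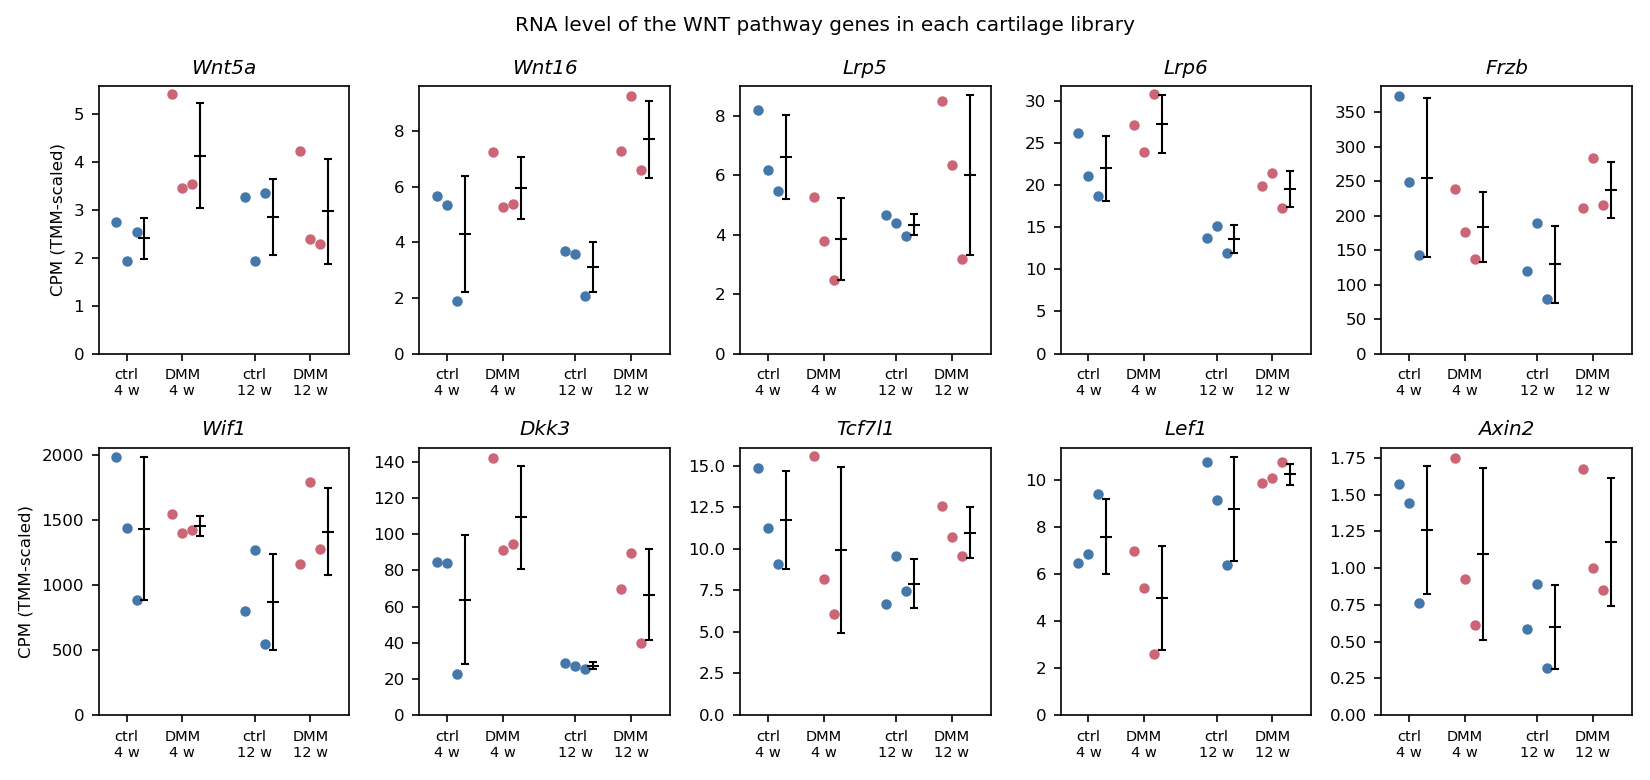
RNA level of each of the 10 WNT pathway genes in the 12 cartilage libraries, in TMM-scaled CPM (linear axis from 0), for control (blue) and DMM (red) limbs at 4 and 12 weeks. Points are libraries and bars are the mean with SD (n = 3). Wnt16, Lrp6, Frzb, Dkk3 and Tcf7l1 have every DMM library above every control library at 12 weeks.

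Whether DMM altered the members early was asked at 4 weeks, where no member passed the test and directions were mixed. Of the 10 genes, 5 were higher and 5 lower in DMM, and the median log2 fold change was -0.09 against -0.03 over all transcripts tested. The skeletal muscle and the chondrocyte score (the mean log2 CPM of that marker list in a library) were each tried as a covariate. With either, 9 of the 10 were higher and Lef1 alone was lower (-0.08). Both scores separated the limbs fully at 4 weeks. The muscle score was 8.18 to 10.13 in control and 4.98 to 7.21 in DMM libraries, and the chondrocyte score 7.55 to 7.98 and 6.84 to 7.36. Fits with these covariates therefore cannot tell the effect of the limb from that of the score. edgeR's quasi-likelihood test called 0 of the 10 at an adjusted p under 0.05, where 0.0757% of all transcripts were called, and DESeq2 also called 0 of 10 where it called 3.44% of all. At an unadjusted p under 0.05 edgeR gave 2 members, Wnt5a and Lrp5, against 13.7% of all transcripts. The limbs did not overlap for 3 members (Wnt5a, Dkk3 and Lrp5), against 21.4% of all transcripts.

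The other week gave a more uniform picture. At 12 weeks all 10 members were higher in DMM, and the median log2 fold change was 0.62 against 0.01 over all transcripts. edgeR again called 0 of 10, where 0.00476% of all transcripts were called. DESeq2 called 2 of 10, Wnt16 and Dkk3, where it called 4.24% of all. With the replicate number as a block, which treats same-numbered pools as pairs, edgeR called 3 of 10. These were Wnt16, Frzb and Dkk3, where it called 3.49% of all transcripts. At an unadjusted p under 0.05 edgeR gave 5 members, Wnt16, Lrp6, Frzb, Dkk3 and Tcf7l1, against 16.3% of all transcripts. Leaving out 1 library gave a call for Frzb without control replicate 2 (log2 fold change 1.23, adjusted p = 0.0402) and for Dkk3 without DMM replicate 3 (log2 fold change 1.57, adjusted p = 0.0141), where edgeR called 4.04% and 0.481% of all transcripts. The same 5 members had every DMM library above every control library, against 19.0% of all transcripts that did not overlap in either direction.

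**Figure D2:**
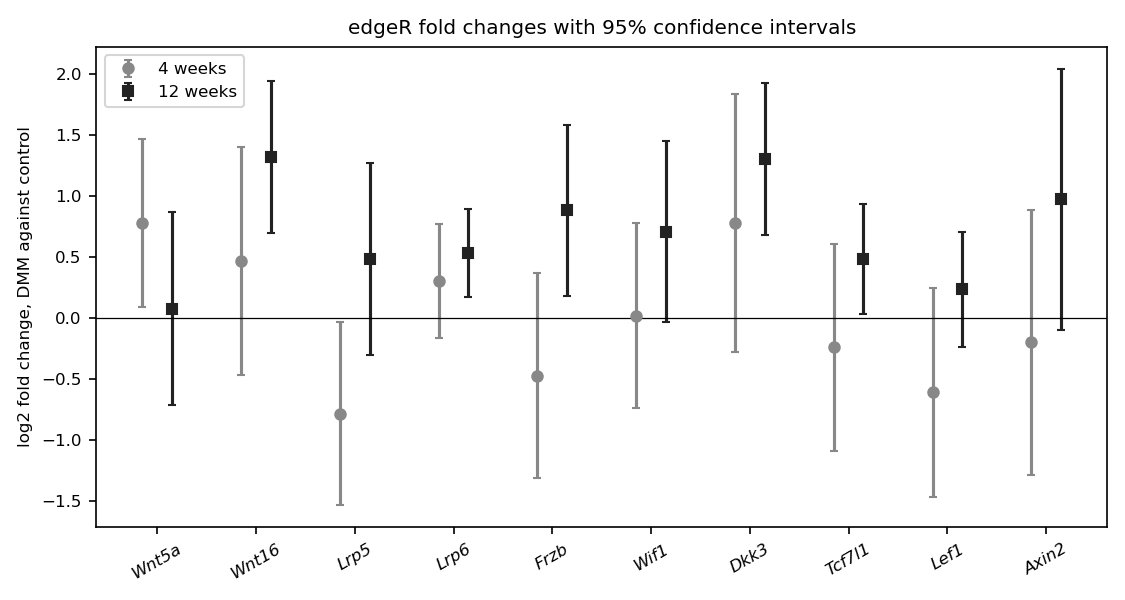
Log2 fold change of DMM against control for each gene at 4 weeks (grey circles) and 12 weeks (black squares) from edgeR, with 95% confidence intervals (n = 3 per limb and week). At 12 weeks the estimates run from 0.08 for Wnt5a to 1.32 for Wnt16, and the intervals of Wnt16, Lrp6, Frzb, Dkk3 and Tcf7l1 lie above 0.

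Of the ligands, Wnt16 had the larger difference at 12 weeks and Wnt5a the larger at 4 weeks. Wnt16 (NM_053116, chr6:22288178-22298522, plus strand, GRCm38), a ligand known to be induced in injured cartilage, measured 3.67, 3.56 and 2.07 CPM in control replicates 1, 2 and 3 and 7.28, 9.24 and 6.58 CPM in the DMM replicates at 12 weeks. Every DMM library was well above the highest control. The log2 fold change was 1.32 (SE 0.27), a fold of 2.49, with an adjusted p of 0.170 in edgeR and 0.000727 in DESeq2. At 4 weeks Wnt16 measured 5.65, 5.35 and 1.90 CPM in control and 7.24, 5.26 and 5.37 CPM in DMM libraries. Control replicate 3 stood low and the other controls lay among the DMM libraries, with a log2 fold change of 0.47 (SE 0.41, edgeR adjusted p = 0.576).

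Wnt5a (NM_009524, chr14:28504543-28527448, plus strand) is a ligand of the β-catenin-independent branch. At 4 weeks it measured 2.74, 1.92 and 2.53 CPM in control libraries and 5.40, 3.45 and 3.53 CPM in DMM libraries. All DMM libraries lay above the controls, by a log2 fold change of 0.78 (SE 0.30, edgeR adjusted p = 0.342). At 12 weeks the values were 3.27, 1.92 and 3.34 CPM in control and 4.22, 2.38 and 2.29 CPM in DMM libraries. The limbs overlapped, with a log2 fold change of 0.08 (SE 0.34), and the 95% interval of -0.71 to 0.87 leaves room for a difference of the size seen at 4 weeks.

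The co-receptors LRP5 and LRP6 bind WNT proteins next to Frizzled receptors. Lrp6 (NM_008514, chr6:134446476-134566913, minus strand) was the more abundant of the pair and measured 13.8, 15.1 and 11.9 CPM in control and 19.8, 21.4 and 17.3 CPM in DMM libraries at 12 weeks. The limbs did not overlap, with a log2 fold change of 0.53 (SE 0.16, edgeR adjusted p = 0.234). At 4 weeks its levels were 26.1, 21.1 and 18.7 CPM in control and 27.1, 23.9 and 30.8 CPM in DMM libraries, which overlapped, with a log2 fold change of 0.31 (SE 0.20).

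Lrp5 (NM_008513, chr19:3584825-3686585, minus strand) had fold changes of opposite sign at the 2 weeks. At 4 weeks it measured 8.17, 6.19 and 5.46 CPM in control and 5.25, 3.80 and 2.48 CPM in DMM libraries, so that every DMM library was below every control. The log2 fold change was -0.78 (SE 0.33, edgeR adjusted p = 0.358). It was 0.19 with the muscle score as a covariate and 0.28 with the chondrocyte score, both of which separated the limbs fully. At 12 weeks the levels were 4.65, 4.37 and 3.96 CPM in control and 8.49, 6.35 and 3.17 CPM in DMM libraries. The DMM libraries spread to both sides of the controls, with a log2 fold change of 0.49 (SE 0.34, edgeR adjusted p = 0.479). Non-coding transcripts on the opposite strand lie over Lrp6 (and over Tcf7l1). Lrp5 is overlapped only at its edge, by Gm36672 (chr19:3686550-3692435). Since counting by strand is not stated in the sources used here, reads from such overlaps could not be told apart.

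Frzb and Wif1 encode secreted proteins that bind WNT ligands outside the cell. Frzb (NM_011356, chr2:80411970-80447396, minus strand), a marker of articular chondrocytes as well as a WNT inhibitor, measured 120.2, 189.7 and 78.5 CPM in control and 211, 284 and 216 CPM in DMM libraries at 12 weeks. Every DMM library was above every control, by a log2 fold change of 0.88 (SE 0.30) or a fold of 1.84, with an adjusted p of 0.263 in edgeR and 0.0694 in DESeq2. At 4 weeks it measured 373, 249 and 143 CPM in control and 238, 177 and 137 CPM in DMM libraries. Here the control libraries were the more scattered, the limbs overlapped, and the log2 fold change was -0.47 (SE 0.36, edgeR adjusted p = 0.533). It was 0.76 with the muscle score and 0.90 with the chondrocyte score as a covariate, both of which separated the limbs fully.

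Wif1 (NM_011915, chr10:121034004-121100642, plus strand), the most abundant member, measured 796, 1268 and 546 CPM in control and 1160.3, 1794 and 1281 CPM in DMM libraries at 12 weeks. Control replicate 2 lay among the DMM libraries and the other controls below them, with a log2 fold change of 0.71 (SE 0.32, edgeR adjusted p = 0.316). At 4 weeks the levels were 1982, 1438 and 883 CPM in control and 1544, 1401 and 1422 CPM in DMM libraries, with a log2 fold change of 0.02 (SE 0.33, 95% interval -0.74 to 0.78). Wif1, Frzb and the chondrocyte markers ordered the 12-week controls alike, as did Lrp6 and Axin2. The summed chondrocyte level was 33881, 58916 and 20142 CPM in control replicates 1, 2 and 3, and all of these measures were highest in replicate 2 and lowest in replicate 3. The remaining members ordered these controls otherwise. Wnt16, Lrp5, Lef1 and Dkk3 were highest in replicate 1, Wnt5a was highest in replicate 3 and Tcf7l1 was lowest in replicate 1. With the chondrocyte score as a covariate in edgeR, the 12-week log2 fold change was 0.57 for Frzb and 0.40 for Wif1, and it was 1.09 for Wnt16. The part of chondrocyte content in any of these differences was not tested.

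Dkk3 (NM_015814, chr7:112116019-112159482, minus strand) encodes a secreted glycoprotein that is the most divergent of the Dickkopf family and whose effect on WNT signaling depends on the cell. At 12 weeks it measured 29.0, 27.2 and 25.2 CPM in control and 69.9, 89.8 and 39.9 CPM in DMM libraries. The 3 controls were close together and all DMM libraries were above them, with a log2 fold change of 1.31 (SE 0.27), a fold of 2.47, and an adjusted p of 0.174 in edgeR and 0.000725 in DESeq2. At 4 weeks the levels were 84.4, 84.1 and 22.4 CPM in control and 142, 91.0 and 94.8 CPM in DMM libraries. The limbs did not overlap, but control replicate 3 was far below the others, and the log2 fold change was 0.78 (SE 0.46, edgeR adjusted p = 0.434). That control replicate was also the lowest of the 6 for the fibroblast and synovium markers, with a summed level of 91.6 CPM against 234 CPM or more in the rest. It was the lowest for adipocyte markers too (251 CPM). For neutrophil (26533 CPM), erythroid (17457), lymphocyte (340), osteoclast (3132) and endothelium (173) markers it was the highest. For chondrocyte, skeletal muscle and osteoblast markers it was neither. The part of these levels in the Dkk3 values was not tested.

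Tcf7l1 and Lef1 encode DNA-binding partners of β-catenin, of which TCF7L1 is mostly known as a repressor and LEF1 as an activator of target genes. Tcf7l1 (NM_001079822, chr6:72626371-72789045, minus strand) measured 6.68, 9.54 and 7.46 CPM in control and 12.6, 10.7 and 9.55 CPM in DMM libraries at 12 weeks. The lowest DMM library was barely above the highest control, and the log2 fold change was 0.48 (SE 0.20, edgeR adjusted p = 0.289). At 4 weeks it measured 14.9, 11.2 and 9.10 CPM in control and 15.6, 8.20 and 6.07 CPM in DMM libraries. The DMM libraries lay on both sides of the controls, with a log2 fold change of -0.24 (SE 0.37). It was 0.92 and 1.09 with the muscle and the chondrocyte score, which both separated the limbs fully.

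Lef1 (NM_010703, chr3:131110297-131224357, plus strand) measured 6.46, 6.87 and 9.40 CPM in control and 6.97, 5.40 and 2.61 CPM in DMM libraries at 4 weeks. DMM replicate 1 lay among the controls and the other DMM libraries below them, with a log2 fold change of -0.61 (SE 0.37, edgeR adjusted p = 0.444). At 12 weeks the levels were 10.7, 9.13 and 6.39 CPM in control and 9.88, 10.1 and 10.7 CPM in DMM libraries. The DMM libraries were tight and overlapped the upper controls, with a log2 fold change of 0.24 (SE 0.21).

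Axin2 (NM_015732, chr11:108917828-108950783, plus strand), the standard transcriptional readout of canonical signaling, was thinly counted, with group means of 31 to 59.3 counts per library. It measured 0.584, 0.891 and 0.323 CPM in control and 1.68, 1.0 and 0.854 CPM in DMM libraries at 12 weeks. The limbs overlapped narrowly, with a log2 fold change of 0.97 (SE 0.46, edgeR adjusted p = 0.330). At 4 weeks the levels were 1.57, 1.44 and 0.761 CPM in control and 1.75, 0.926 and 0.613 CPM in DMM libraries, which overlapped fully. The log2 fold change was -0.20 (SE 0.47). It was 1.08 with the muscle score and 1.28 with the chondrocyte score, both of which separated the limbs fully.

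Whether the DMM effect differed between weeks was tested as the interaction of limb and week over all 12 libraries. The effect was more positive at 12 weeks for 9 of 10 members, with a median of 0.78 log2 units against 0.03 over all transcripts, and Wnt5a was the exception (-0.71, SE 0.45). The interaction was 1.16 for Axin2, 0.85 for Wnt16, 0.84 for Lef1, 0.72 for Tcf7l1, 0.69 for Wif1, 0.53 for Dkk3 and 0.22 for Lrp6. edgeR called 0 of 10 and 0% of all transcripts, and DESeq2 called 0 of 10 and 0.0613% of all. At an unadjusted p under 0.05 edgeR gave Frzb (1.35, SE 0.52, adjusted p = 0.405) and Lrp5 (1.26, SE 0.49, adjusted p = 0.405), 2 of 10 members against 12.3% of all transcripts. The fold changes at the 2 weeks come from separate libraries, and the sources used here do not say whether the libraries of both weeks were made together.

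The change between weeks within each limb was read from the same fit. In control cartilage 8 members were lower and 2 higher at 12 weeks, with a median of -0.61 against -0.0029 over all transcripts. Marker levels differed between the weeks too, and their part was not tested. In control libraries the summed neutrophil level was 9108 to 26533 CPM at 4 weeks and 25063 to 42464 CPM at 12 weeks, the chondrocyte level 31489 to 78262 and 20142 to 58916 CPM, and the muscle level 5556 to 20712 and 86.2 to 13231 CPM. edgeR called 0 of 10, against 5.69% of all transcripts, and 3 members had an unadjusted p under 0.05, against 25.4% of all. These were Lrp6 (-0.65, SE 0.18, adjusted p = 0.0510), Dkk3 (-1.20, SE 0.43, adjusted p = 0.109) and Frzb (-0.94, SE 0.37, adjusted p = 0.142). The rest were Axin2 (-1.01), Wif1 (-0.68), Lrp5 (-0.57), Tcf7l1 (-0.53), Wnt16 (-0.43), Wnt5a (0.28) and Lef1 (0.25). DESeq2 called Lrp6 and Dkk3, 2 of 10 where it called 13.9% of all. The result leaned on control replicate 3 of 4 weeks: without it edgeR called 21.4% of all transcripts and 4 members, Dkk3 (-1.63, adjusted p = 0.00302), Lrp6 (-0.79, adjusted p = 0.0116), Frzb (-1.26, adjusted p = 0.0194) and Wif1 (-0.97, adjusted p = 0.0456).

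In DMM cartilage the largest change between weeks was in Lef1. Its level was 6.97, 5.40 and 2.61 CPM at 4 weeks and 9.88, 10.1 and 10.7 CPM at 12 weeks, with no overlap, and it rose by 1.08 on the log2 scale (SE 0.31, edgeR adjusted p = 0.0283). It was the only member that edgeR called, 1 of 10 against 23.6% of all transcripts. The call was lost when DMM replicate 2 or 3 of 4 weeks, or any 1 DMM replicate of 12 weeks, was left out (edgeR adjusted p from 0.0597 to 0.103). DESeq2 called Lef1 and Lrp6, 2 of 10 against 29.1% of all, and the same 2 members had an unadjusted p under 0.05 in edgeR, against 37.4% of all. Lrp6 was lower at 12 weeks by edgeR (-0.44, SE 0.18, adjusted p = 0.0924). The remaining values were 0.69 for Lrp5, 0.42 for Wnt16, 0.41 for Frzb, 0.19 for Tcf7l1, 0.16 for Axin2, 0.0039 for Wif1, -0.43 for Wnt5a and -0.67 for Dkk3. In the DMM libraries the summed fibroblast and synovium level was 397.7 to 558.8 CPM at 4 weeks and 142 to 245.2 CPM at 12 weeks, the neutrophil level 13458 to 20162 and 20102 to 33102 CPM and the chondrocyte level 26244 to 37513 and 37069 to 61153 CPM. The median over the 10 members was 0.17, against 0.02 over all transcripts.

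A further 113 genes of the pathway, listed by textbook role, were read from the same fits. At 4 weeks 101 were tested, of which 38 were higher and 63 lower in DMM, and the median log2 fold change was -0.23. At 12 weeks 99 were tested, of which 79 were higher and 20 lower, with a median of 0.33. edgeR called 0 of them at either week. At an unadjusted p under 0.05 10 genes were higher and 8 lower in DMM early, whereas 21 were higher and 3 lower late, against 13.7% and 16.3% of all transcripts in either direction. By DESeq2 there were 7 calls early, 5 of them higher and 2 lower, and 8 at 12 weeks that were all higher in DMM, where it called 3.44% and 4.24% of all.

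By role, extracellular inhibitors and ligands stood furthest from 0 at 12 weeks. The 10 extracellular inhibitors tested had a median of 0.67 on the log2 scale, with 9 higher, led by Sfrp4 (0.94, SE 0.14, edgeR adjusted p = 0.0663), a secreted Frizzled-related protein like Frzb, and by Sost (0.80, SE 0.20), which blocks LRP5 and LRP6. Sfrp4 measured 102 ± 11.2 CPM in control and 195 ± 17.9 CPM in DMM cartilage, and Sost, a product of osteocytes and calcified cartilage, 175 ± 33.7 and 302 ± 50.7 CPM. The 10 osteoblast and osteocyte markers had summed levels of 6050 to 11590 CPM in control and 9592 to 11670 CPM in DMM libraries, with 6 higher in DMM. Of the 14 ligands tested 11 were higher (median 0.56), led by Rspo2, which amplifies WNT signaling through LGR receptors (1.65 ± 0.471 CPM in control, 5.14 ± 0.968 CPM in DMM, log2 fold change 1.65, edgeR adjusted p = 0.120), and Wnt5b (10.5 ± 1.94 and 19.8 ± 3.91 CPM, log2 fold change 0.92). The 18 receptors had a median of 0.49, with 16 higher, and the smallest p-values belonged to the Frizzled genes Fzd9 (27.8 ± 13.2 and 62.3 ± 8.07 CPM) and Fzd10 (0.211 ± 0.144 and 1.12 ± 0.603 CPM).

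The intracellular parts of the pathway were nearer to 0. At 12 weeks the median was 0.30 for 20 intracellular inhibitors, led by Dact3 (log2 fold change 1.25) and Apc (0.40), and 0.12 for 22 transduction and transcription genes, led by Dvl1 (0.51) and Bcl9l (0.53). The 13 targets had a median of 0.36, led by the matricellular gene Ccn5 (30.2 ± 5.94 and 55.7 ± 9.20 CPM, log2 fold change 0.90) and the AP-1 gene Fosl1 (0.897 ± 0.272 and 2.58 ± 0.492 CPM, log2 fold change 1.53). Wls and Porcn, which are needed to secrete WNT proteins, had log2 fold changes of 0.27 and 0.33.

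At 4 weeks the medians were -0.13 for ligands, -0.31 for receptors, 0.14 for extracellular inhibitors, -0.31 for intracellular inhibitors, -0.41 for transduction and transcription genes and 0.06 for targets. The genes with the smallest p in their roles included the ligand Wnt4 (3.23 ± 1.70 CPM in control, 0.854 ± 0.162 CPM in DMM, log2 fold change -1.91) and Ndp, the Frizzled-4 ligand norrin (1.49 ± 0.538 and 5.95 ± 2.89 CPM, log2 fold change 1.99), each with an edgeR adjusted p of 0.227. The receptor genes Lgr6 (-1.36) and Fzd9 (-1.23), the inhibitors Sfrp5 (-1.52) and Nkd1 (-1.07), the Dishevelled gene Dvl2 (-0.70) and the secretion factor Porcn (-0.31) were lower, whereas the inhibitors Sfrp2 (2.0) and Dact2 (1.71), the planar polarity gene Prickle2 (0.88), the targets Ccn5 (1.17) and Cd44 (0.64) and the secretion factor Wls (0.58) were higher, none past the adjusted threshold in edgeR. Fzd9 was lower in DMM at 4 weeks and higher at 12 weeks.

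**Figure D3:**
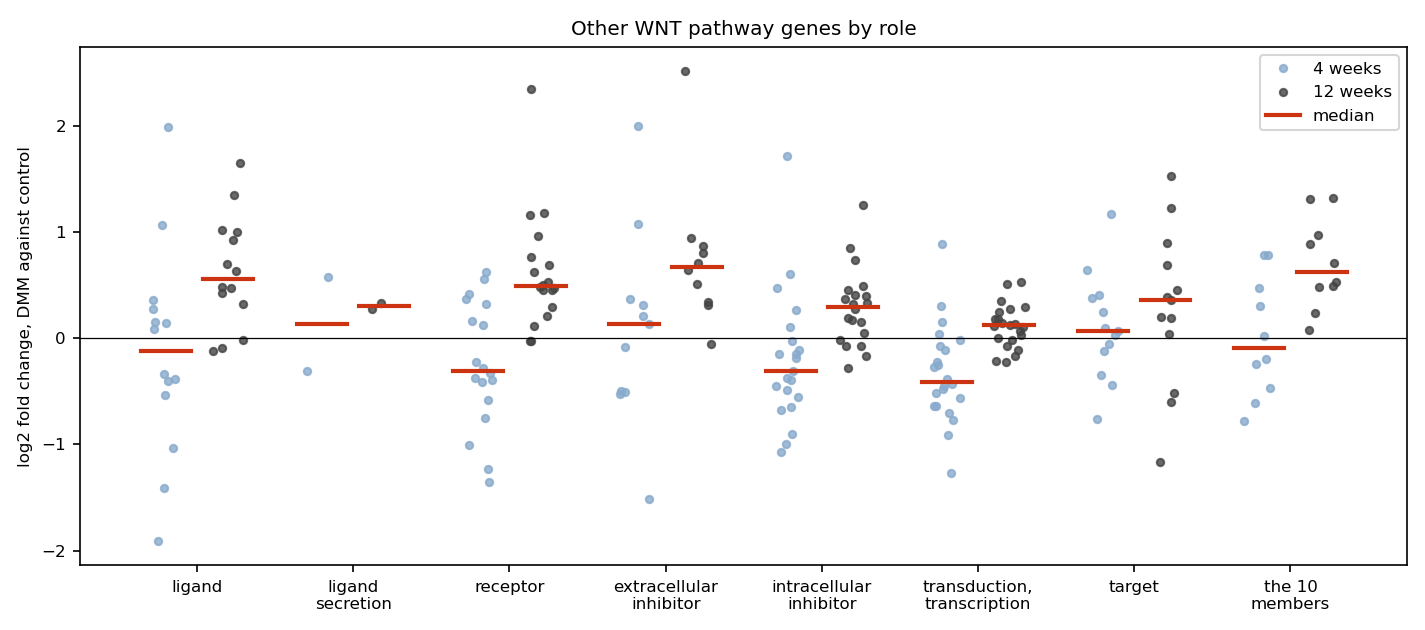
Log2 fold change of DMM against control for the other WNT pathway genes tested, by role, and for the 10 members, at 4 weeks (blue) and 12 weeks (black). Points are genes and red bars are medians, which at 12 weeks run from 0.12 for transduction and transcription genes to 0.67 for extracellular inhibitors.

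Reduced representation oxidative bisulfite sequencing reads 5-methylcytosine (5mC) at CpG sites near MspI cuts (CCGG). A cytosine was tested when covered by at least 10 reads in all 6 oxidized libraries of a week, and median coverage ran from 22 to 102 reads per library at 4 weeks and from 28 to 72 at 12 weeks. The share of a gene's CpG cytosines that could be tested at either week ran from 17.7% for Axin2 (341 cytosines) to 0.169% for Wnt16, which had a single cytosine at 4 weeks and none at 12 weeks. The methylation of Wnt16, which with Dkk3 had the largest log2 fold changes of RNA at 12 weeks (1.32 and 1.31), was therefore all but unmeasured. The bases directly upstream of its start held 7 CpG sites and no CCGG. For Frzb, in contrast, 16 CpG and 2 CCGG sites lay upstream of the start and 5 cytosines were tested there at each week. Both stretches are shown 5′ to 3′ in the direction of the gene, from RefSeq GRCm38.p6, with CpG sites in capitals, for Wnt16 at chr6:22287977-22288177 (plus strand) and for Frzb at chr2:80447397-80447646 (minus strand).
Wnt16 upstream: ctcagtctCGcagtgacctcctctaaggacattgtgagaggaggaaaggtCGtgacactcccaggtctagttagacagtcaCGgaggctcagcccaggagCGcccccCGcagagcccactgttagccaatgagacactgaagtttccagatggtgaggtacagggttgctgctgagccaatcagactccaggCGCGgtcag
Frzb upstream: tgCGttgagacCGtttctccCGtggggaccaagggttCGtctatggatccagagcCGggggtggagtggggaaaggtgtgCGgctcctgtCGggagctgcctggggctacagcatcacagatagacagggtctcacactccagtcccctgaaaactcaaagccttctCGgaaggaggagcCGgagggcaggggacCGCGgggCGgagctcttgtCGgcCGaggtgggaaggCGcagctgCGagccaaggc

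Around the starts of the members, cytosines were nearly free of 5mC in both limbs. Over the cytosines within 1 kb of a start of the gene, mean 5mC ranged from 0.294% to 5.07% across 8 members in both limbs and weeks, and Wnt5a was the highest at 6.94% to 8.81%. At 12 weeks 2 of 9 members had limbs that did not overlap, against 19.1% of all genes with at least 10 tested cytosines there (17.8% among genes whose starts lie within 2 kb of each other). Frzb measured 1.21, 1.04 and 1.54% in control and 0.422, 0.808 and 0.701% in DMM libraries, and Lef1 2.10, 2.01 and 2.59% in control and 3.34, 3.03 and 3.11% in DMM libraries. Frzb was thus lower and Lef1 higher in DMM, both by less than 1 percentage point (exact permutation p = 0.1 each, the smallest that 3 against 3 can give). At 4 weeks Wif1 (0.872% in control, 0.613% in DMM) and Tcf7l1 (0.933% and 0.664%) did not overlap, again 2 of 9, against 9.25% of all genes so measured (9.22% among those with starts within 2 kb).

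Promoter windows of 250 bases before to 50 bases after the start were available for 6 members (9 windows) of 32851 in the RefSeq table. None of the 9 held CTTTGAA or CTTTGAT on either strand, a core motif of TCF/LEF factors that 8.65% of all windows held. CCGG was present in 6 of the 9, against 52.8% of all windows.

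Away from the starts the members were mostly methylated, and at 12 weeks DMM libraries tended to be lower. Over the 586 cytosines more than 1 kb from a start of their gene, mean 5mC at 12 weeks was 63.8% in control and 59.8% in DMM. Of these, 116 had a likelihood ratio p under 0.05 with lower 5mC in DMM and 13 with higher. Counted as more than 1 kb from any annotated start, 111 of 564 member cytosines (19.7%) were lower at this p and 13 (2.3%) higher, against 11.5% and 3.83% of all cytosines so placed. Over all 1340 member cytosines, 135 (10.1%) were lower at this p, against 7.10% of all cytosines tested, and at 4 weeks 82 of 1608 (5.10%) were lower, against 4.60% of all. The test pools the reads of a group and carries no spread between libraries, and cytosines of a fragment share reads.

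A cytosine was called differentially methylated (DMC) where the limbs differed by 25 percentage points or more, with q under 0.05. At 4 weeks 0 of the 1608 member cytosines met it, where 0.000554% of all cytosines did, and both alternatives that carry the spread between libraries also gave 0. At p under 0.05 there were 121 (7.52%), against 8.02% of all. At 12 weeks 6 of 1340 (0.448%) met it, where 0.227% of all did, and 2 of the 6 were read from the same fragments. All 6 were in introns and all were lower in DMM. With a library left out, 1 to 10 member cytosines met it, where 0.129% to 0.409% of all did. With a correction for overdispersion, or with limma on log ratios, none of the 6 passed at 12 weeks, and neither did any of the other cytosines tested. At an unadjusted p under 0.05 the corrected test gave 35 member cytosines, 31 of them lower in DMM, and limma gave 86, of which 75 were lower. These were 2.61% and 6.42% of the member cytosines, against 1.97% and 5.62% of all cytosines.

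Tcf7l1 held 3 of the 6. A cytosine pair at chr6:72679051 and chr6:72679057, on the plus strand and 6 bases apart, lay inside the lncRNA gene Gm31391 of the opposite strand at -7652 and -7658 bases from a predicted internal start of Tcf7l1. The first measured 65.9%, 87.5% and 77.8% in control and 31.7%, 50% and 49.0% in DMM libraries at 12 weeks, with 16 to 49 reads in each. All control libraries were above all DMM libraries, and over pooled reads the difference was -31.2 points (q = 0.00481). The other measured 65.9%, 81.2% and 70.4% in control and 31.7%, 38.9% and 44.9% in DMM libraries, a difference of -31.3 points (q = 0.00512), from reads of the same fragments. At 4 weeks the library means of the first were 49.8% ± 21.5 in control and 33.1% ± 8.75 in DMM and those of the other 39.3% ± 14.1 and 28.9% ± 13.8. Over pooled reads, to which the deepest control gives the most, these 4-week differences were -4.35 and 0.255 points. The remaining Tcf7l1 cytosine, at chr6:72740551 on the minus strand and inside the lncRNA gene Gm31249, had the smallest q of the 6. It measured 58.3%, 52.4% and 63.5% in control and 31.2%, 31.4% and 32.7% in DMM libraries, with 42 to 93 reads in each, and the DMM libraries were almost equal. The difference was -26.8 points (q = 0.000514), and at 4 weeks the library means were 45.1% ± 16.9 in control and 30.9% ± 3.60 in DMM.

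The others lay in Dkk3, Lrp5 and Axin2, 1 in each. The Dkk3 cytosine, at chr7:112149910 on the minus strand and 8786 bases downstream of the nearest annotated start, measured 78.1%, 78.1% and 87.5% in control and 58.6%, 51.2% and 54.7% in DMM libraries (32 to 70 reads). The limbs were well apart, with a difference of -25.5 points (q = 0.00166), and 4-week library means were 60.5% ± 3.89 in control and 45.4% ± 13.7 in DMM. The Lrp5 cytosine, at chr19:3643979 on the minus strand, measured 47.4%, 80.0% and 65.2% in control and 34.9%, 42.9% and 14.3% in DMM libraries (15 to 43 reads). Its limbs did not overlap but libraries varied widely within each limb, with a difference of -29.9 points (q = 0.0139). The Axin2 cytosine, at chr11:108935756 on the minus strand, measured 44.0%, 42.1% and 70.6% in control and 17.1%, 5.88% and 24.0% in DMM libraries (17 to 41 reads). The difference was -34.0 points (q = 0.00517), the largest of the 6. That cytosine was less methylated in both limbs at 4 weeks (15.4% ± 5.34 in control, 18.0% ± 6.22 in DMM) than in control cartilage at 12 weeks (52.2% ± 15.9).

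**Figure D4:**
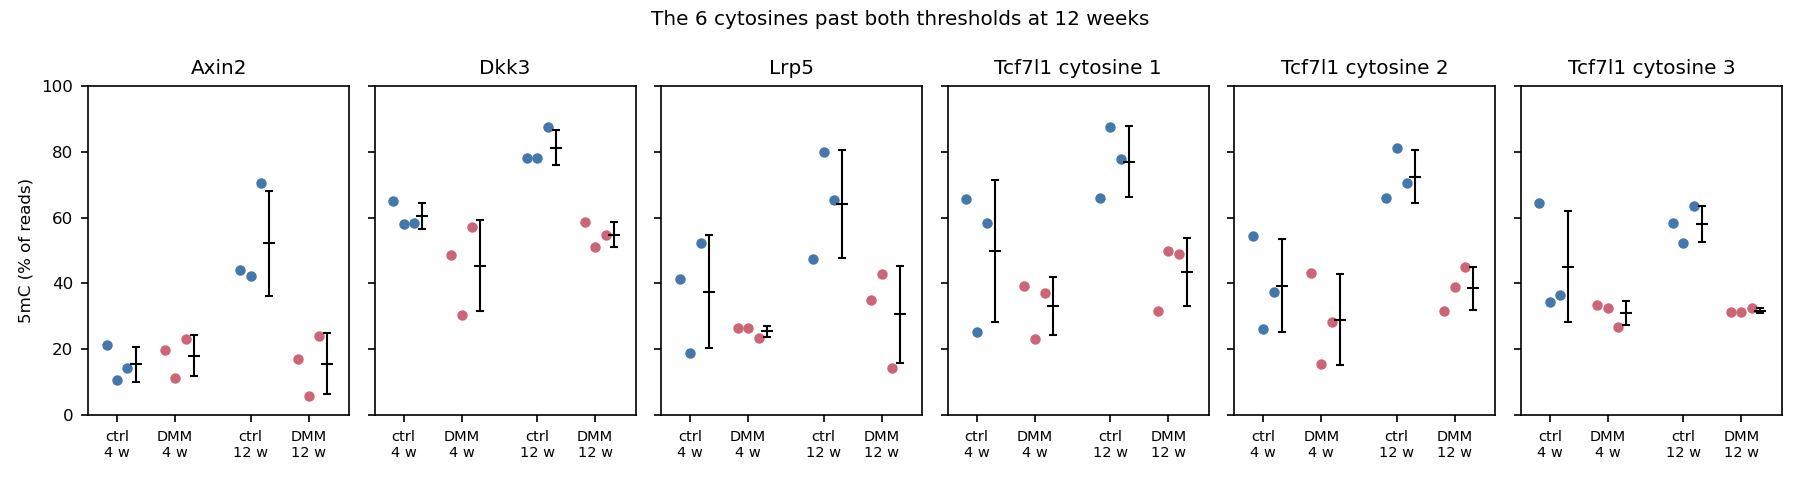
5mC at the 6 cytosines of Axin2, Dkk3, Lrp5 and Tcf7l1 that passed both thresholds at 12 weeks, as percent of reads (axis 0 to 100), in each control (blue) and DMM (red) library at 4 and 12 weeks. Bars are the mean with SD (n = 3), and Tcf7l1 cytosines are numbered by position. At 12 weeks no DMM library reaches a control library at any of the 6, and at 4 weeks the limbs overlap at 4 of them.

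The sequence around each DMC is shown because these are the member cytosines past both thresholds, and all hold a CCGG site, which the assay requires. They are written 5′ to 3′ on the plus strand of GRCm38.p6, with CpG sites in capitals. The Tcf7l1 stretch chr6:72678781-72679064 holds 11 CpG sites, of which 8 cytosines were tested at 12 weeks, and its DMC pair is made of the last 2 capital pairs. The 61-base stretches chr6:72740521-72740581 (Tcf7l1), chr19:3643949-3644009 (Lrp5), chr7:112149880-112149940 (Dkk3) and chr11:108935726-108935786 (Axin2) are centred on their DMC.
Tcf7l1 with 2 DMCs: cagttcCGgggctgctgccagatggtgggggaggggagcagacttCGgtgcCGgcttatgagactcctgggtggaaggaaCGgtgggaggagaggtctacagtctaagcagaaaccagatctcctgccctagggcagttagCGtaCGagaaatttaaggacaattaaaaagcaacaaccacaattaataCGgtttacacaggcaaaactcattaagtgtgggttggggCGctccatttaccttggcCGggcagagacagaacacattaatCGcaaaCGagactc
Tcf7l1 with 1 DMC: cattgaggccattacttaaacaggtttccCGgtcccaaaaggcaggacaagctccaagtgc
Lrp5 DMC: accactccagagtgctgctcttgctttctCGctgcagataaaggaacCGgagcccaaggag
Dkk3 DMC: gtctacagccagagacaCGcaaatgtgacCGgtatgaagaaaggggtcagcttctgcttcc
Axin2 DMC: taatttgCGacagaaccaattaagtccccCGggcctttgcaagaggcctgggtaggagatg

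Over the 8 cytosines tested in the longer Tcf7l1 stretch, mean 5mC at 12 weeks was 55.7%, 50.4% and 65.2% in control and 36.9%, 41.3% and 45.3% in DMM libraries. All DMM means lay below the lowest control. Just outside the thresholds were a Tcf7l1 cytosine of the same stretch (chr6:72678832, -24.5 points, q = 0.00433), 2 Lrp6 cytosines (chr6:134451061, in an exon, -23.3 points, and chr6:134460706, -21.9 points) and an Axin2 cytosine (chr11:108936706, -20.1 points). At the Lrp6 exon cytosine control libraries measured 49.0%, 36.8% and 51.6% and DMM libraries 22.5%, 27.8% and 20%.

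Regions of at least 3 cytosines with a mean difference of 20 points or more were also sought. None fell in a member at either week, of 323 regions found at 12 weeks and 0 at 4 weeks. The study reported more regions at both weeks by its own calling, and listed Tcf7l1 and Lrp5 among genes associated with them. With a library left out at 12 weeks, 0 to 2 regions fell in members, all in these genes.

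With 1 mean per library, 5 of 9 members had lower 5mC in every DMM library at 12 weeks over the gene and 5 kb around, against 26.5% of all genes (here and below, those with at least 10 cytosines measured). They were Dkk3 (23.6% ± 0.477 in control, 20.1% ± 0.839 in DMM), Wif1 (45.0% ± 0.586 and 40.7% ± 2.28), Lrp6 (13.2% ± 0.441 and 11.1% ± 0.880), Lrp5 (31.7% ± 0.333 and 29.7% ± 1.37) and Axin2 (17.8% ± 0.948 and 15.8% ± 0.683), each with an exact permutation p of 0.1, the smallest possible. In Lrp5 and Axin2 the limbs were barely apart. The highest DMM library was at 31.26% (Lrp5) and 16.56% (Axin2), and the lowest control at 31.30% and 16.67%. Differences over all genes had a median of -0.418 points. Wnt5a was the only member with a higher mean in DMM, by 0.965 points with overlapping limbs. With means weighted by coverage 2 members had this pattern, against 15% of all genes, and with a coverage minimum of 20 reads 3 did, against 25.6%. At 4 weeks 0 of the 9 members with more than 1 cytosine had every DMM library lower, against 6.29% of all genes, and 7 had it without control replicate 2, the deepest library, where 35.6% of all genes did.

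Means over the cytosines more than 1 kb from any annotated start, where 5mC is high, were then compared. For Dkk3, with 15 such cytosines, they were 62.4, 65.8 and 65.1% in control and 55.5, 53.1 and 56.8% in DMM libraries at 12 weeks. Wif1, with 54, measured 70.3, 71.5 and 72.0% in control and 65.0, 67.7 and 60.6% in DMM libraries. Lrp6, with 17, measured 60.0, 58.4 and 62.2% in control and 49.3, 56.4 and 48.6% in DMM libraries. In all 3 genes, and in Lrp5 (69.7% ± 0.518 and 65.4% ± 3.05), no DMM library reached the lowest control, 4 of 9 members against 28.7% of all genes, whose median difference over such cytosines was -1.36 points. In Lrp5 the limbs were barely apart, with DMM replicate 2 at 68.9% and control replicate 1 at 69.1%. With a coverage minimum of 20 reads Lrp5 and Lrp6 overlapped, which left 2 of 9 against 30.5% of all genes. Axin2 (53.6% ± 2.78 and 47.7% ± 2.51), Tcf7l1 (66.5% ± 1.88 and 63.0% ± 2.82), Lef1 (67.2% ± 0.896 and 65.3% ± 1.32) and Frzb (46.3% ± 4.38 and 44.8% ± 4.05) had lower means with overlapping limbs, and Wnt5a was at 59.7% ± 1.70 and 61.7% ± 0.765.

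**Figure D5:**
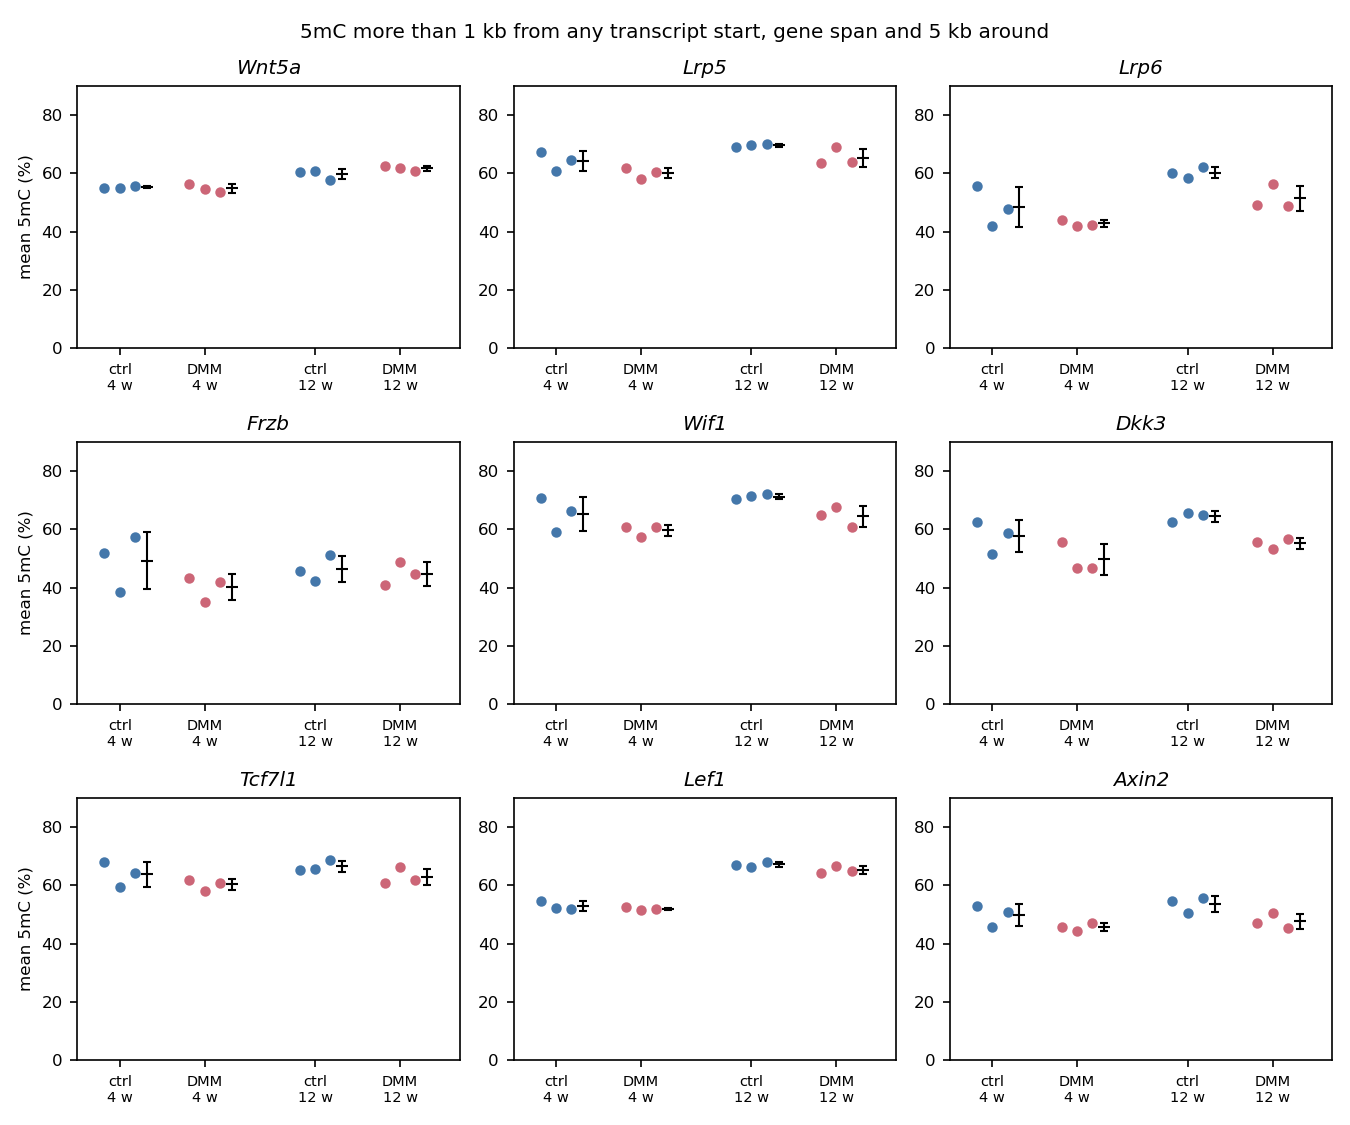
Mean 5mC over the cytosines of each gene and 5 kb around that lie more than 1 kb from any annotated start, in percent (axis 0 to 90), for control (blue) and DMM (red) libraries at 4 and 12 weeks. Points are libraries and bars are the mean with SD (n = 3). Wnt16 is left out because none of its cytosines was tested at 12 weeks. DMM libraries lie below all controls at 12 weeks in Lrp5, Lrp6, Wif1 and Dkk3.

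Of these 4, Dkk3 and Lrp6 also had RNA levels that did not overlap between limbs at 12 weeks, in the direction of more RNA in DMM (for Lrp6 the 5mC separation was lost at a coverage of 20), while Wif1 and Lrp5 RNA overlapped. Among all transcripts, 19.0% did not overlap in either direction. How many of all genes had both traits was not counted, and a link between 5mC and RNA was not tested. Frzb, Tcf7l1 and Wnt16, with higher RNA in every DMM library, had overlapping mean 5mC over the gene or, for Wnt16, none measured at 12 weeks. Within 1 kb of its starts Frzb was lower in every DMM library, though both limbs were nearly free of 5mC there (1.27% and 0.644%). Tcf7l1 held 3 of the DMCs. RNA and DNA came from different mice, so no library can be matched between the assays.

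5-hydroxymethylcytosine (5hmC), the oxidation product of 5mC, was estimated as the mean percentage in mock-oxidized libraries minus that in oxidized libraries of the same sample. The mock-oxidized values of DMM replicate 1 at 12 weeks came under a name that carries another replicate number, and their match to that sample rests on the repository's record. At 12 weeks it was higher in every DMM sample for 1 of 9 members, against 11.7% of all genes. This was Lrp5, at 2.77, 1.92 and 2.01 points in control and 4.33, 3.82 and 4.28 points in DMM samples (exact permutation p = 0.1, the smallest possible), and the DMM mean was 4.05 points without DMM replicate 1. Over all cytosines 5hmC was also higher in each DMM sample at 12 weeks, at 2.04 ± 0.289 points against 1.53 ± 0.0997 points. For Wif1, the mean was 2.84 ± 1.82 points in control and 5.60 ± 1.13 points in DMM, and the limbs overlapped at the edge, but with a coverage minimum of 20 reads (20 cytosines) the order turned, at 2.88 ± 1.17 points in control and 2.10 ± 1.03 points in DMM. The others overlapped, with control and DMM means of 3.82 and 4.64 points for Dkk3, 3.69 and 4.54 for Tcf7l1, 2.38 and 3.14 for Lef1, 1.96 and 2.98 for Axin2, 1.80 and 2.0 for Wnt5a, 2.04 and 1.93 for Lrp6 and 1.80 and 1.27 for Frzb. At 4 weeks 0 of the 9 members had every DMM sample higher, against 6.65% of all genes, and levels ranged from 1.15 ± 0.454 points for Wnt5a in control to 7.66 ± 0.692 points for Wif1 in DMM. Without control replicate 2 all of the 9 but Lrp6 and Lef1 had it at 4 weeks, against 23.5% of all genes. Without DMM replicate 2 at 12 weeks Wif1, Lef1 and Axin2 joined Lrp5, against 21.9% of all genes.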

How the data were processed

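RNA-seq and reduced representation oxidative bisulfite sequencing had been performed on pooled mouse articular cartilage, and libraries were grouped by limb and week per the labels. The authors deposited counts per RefSeq transcript, made by trimming with FLEXBAR, STAR alignment to mm10 and featureCounts. The methods name SMART-Seq v4 with Nextera XT libraries and the labels a poly(A) TruSeq protocol, and neither states strand. For 24 bisulfite (BS) and oxidized (oxBS) libraries the authors deposited the coverage and the percent of reads with C at each CpG cytosine of at least 10 reads. The submitters' processing notes name CASAVA 2.17 and Bismark. Mitochondrial cytosines were left out, and 1671 of 1671 member positions were at a CpG of GRCm38.

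Counts were tested with edgeR 4.0.16 in R 4.3.3 (robust quasi-likelihood, TMM, low counts filtered by edgeR's default, p-values adjusted by Benjamini-Hochberg over all transcripts tested), each week alone, and all 12 libraries for the interaction and the week contrasts. CPM values were TMM-scaled over the 12 libraries. The study used DESeq2, of which version 1.42.0 was tried here as an alternative. 5mC was tested on pooled oxBS reads by the likelihood ratio test of a logistic model per cytosine (Python 3.11.15, numpy 2.4.6, pandas 2.3.3, scipy 1.17.1), and means per library by two-sided exact permutation tests. 5hmC was BS minus oxBS. The precision rests on 27706547 to 62737656 counts per RNA library and on median coverages of 22 to 102 reads. Both kinds of test were first run on simulated data in which the changed features were known. The outcome of those runs is not given here, and no result above rests on it. Alternatives were other normalizations, filters, covariates, thresholds and coverage minimums, limma 3.58.1, a replicate block and leaving out each library.

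The 10 members and the lists of pathway genes and cell type markers were chosen with earlier results of these data known. All members were named in each RNA comparison and, where cytosines were tested, in the 12-week means of 5mC away from starts and of 5hmC, and were otherwise given by counts and ranges. Of the pathway list, the 2 genes with the smallest p per role and week were named, and of the cytosines those past both thresholds. Cytosines just outside the thresholds were chosen after their values were seen.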

Additional observations from a re-analysis of the deposited data

How the results depend on the processing

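Depth, 3 libraries per group and pooled knees limit these results. Most fitted values of the members kept their direction and side of the threshold: 138 of 150 at 4 weeks, 141 of 150 at 12 weeks, 170 of 170 for the interaction, 150 of 160 for control and 139 of 160 for DMM cartilage between weeks. At 4 weeks covariates reversed 4 genes, Lrp5 (0.19 with the muscle score, 0.28 with the chondrocyte score), Frzb (0.76, 0.90), Tcf7l1 (0.92, 1.09) and Axin2 (1.08, 1.28), and the cause was not tested. Both scores were lower in every DMM library than in every control at 4 weeks, so these fits cannot separate limb from score. Leaving out 1 library gave log2 fold changes of -0.25 to 0.31 for Wif1, -0.73 to 0.0193 for Tcf7l1 and -0.71 to 0.0862 for Axin2 at 4 weeks, of -0.28 to 0.24 for Wnt5a at 12 weeks, and of -0.24 to 0.13 for Wif1, -0.11 to 0.66 for Tcf7l1 and -0.19 to 0.65 for Axin2 in DMM cartilage between weeks, where Wif1 was also at -0.0250 with DESeq2, -0.0242 with median-of-ratios factors, -0.0445 without a filter and -0.0356 with 1 transcript per gene.

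The number of members called at 12 weeks was 0 in edgeR, 2 in DESeq2 and 0 to 1 with a library left out. Over all transcripts edgeR called 0.00476% and DESeq2 4.24%. With a library left out, edgeR called 0 to 860 of the 21175 to 21389 transcripts tested. For control cartilage between weeks it was 0 in edgeR and 2 in DESeq2, where 5.69% and 13.9% of all transcripts were called. It was 1 with median-of-ratios factors (1077 of 21618 transcripts called), 1 without a filter (1064 of 26133) and 1 with 1 transcript per gene (817 of 15588). With a library left out it was 0 to 4, where 37 to 4685 of the 21832 to 21893 transcripts tested were called. For DMM cartilage it was 1 in edgeR and 2 in DESeq2, where 23.6% and 29.1% of all transcripts were called. With a library left out it was 0 to 2, where 1682 to 6396 of the 21832 to 21893 transcripts tested were called. DESeq2 called 7 other pathway genes at 4 weeks and 8 at 12 weeks, where it called 3.44% and 4.24% of all transcripts. In a check of pairing, r of same-numbered control and DMM libraries was 0.37, -0.359 and 0.0843 at 4 weeks and -0.585, 0.286 and -0.268 at 12 weeks. For differently numbered libraries it ran from -0.378 to 0.481 at 4 weeks and from -0.467 to 0.616 at 12 weeks. This r is not a correlation of raw expression levels. With 3 libraries per group, such values cannot tell whether same-numbered pools share mice. With the replicate block edgeR called 3 members at 12 weeks (Wnt16, Frzb and Dkk3), where it called 3.49% of all transcripts against 0.00476% without the block, and 0 at 4 weeks and for the interaction, as without it (the week contrasts were not fitted with the block), and sign flips of paired 5mC means cannot give a p below 0.25.

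In place of 6 DMCs at 12 weeks there were 0 with the overdispersion correction, 0 with limma, 0 with limma and the replicate block, 2 at a coverage of 20 (0.207% of member and 0.161% of all cytosines), 10 at a difference of 20 points (0.746% and 0.674%), 3 without both control replicate 2 and DMM replicate 1 (0.206% and 0.102%, added after seeing the data) and 1 to 10 with a library left out (1 without control replicate 3, 4 without DMM replicate 1, 9 without DMM replicate 3, and 10 without control replicate 1 or 2 or DMM replicate 2), where 0.129% to 0.409% of all cytosines were called (0.176% without control replicate 3). At 12 weeks the bisulfite samples of control replicate 2 and DMM replicate 1 carry titles of another form than the rest. The labels do not give a reason. Of the 4 without DMM replicate 1 at 12 weeks, 1 was higher in DMM and 3 were lower. At 4 weeks leaving out a library gave 0 to 3, the 3 (in Wif1, Tcf7l1 and Lef1) without control replicate 2, the deepest library, which is 0.187% of member cytosines against 0.21% of all. Regions in members at 12 weeks numbered 0 to 2 with a library left out, in Tcf7l1 (chr6:72678788-72678861) and Lrp5 (chr19:3643979-3643997). The 5 members with lower mean 5mC in every DMM library at 12 weeks became 2 with coverage-weighted means (15% of all genes) and 3 at a coverage of 20 (25.6%). With a library left out they became 5 to 7 (29.1% to 40.9% of all genes). Away from starts the 4 became 4 weighted (23.9% of all genes) and 2 at a coverage of 20 (30.5%). With a library left out they became 4 to 7, against 31.1% to 45% of all genes (6 without control replicate 2 and 7 without DMM replicate 2, against 41.3% and 45%). Over the gene and 5 kb around none had this at 4 weeks, and 0 to 7 with a library left out (7 without control replicate 2, against 35.6% of all genes). Within 1 kb of a start, 2 members were lower in every DMM library at 4 weeks, against 6.28% of all genes. They became 1 weighted (6.06% of all genes) and 1 at a coverage of 20 (6.65%). With a library left out they became 2 to 5, against 10.1% to 22.8% of all genes (5 without DMM replicate 1, against 17.4%). At 12 weeks 1 member (14.6% of all genes) became 2 weighted (12.8%), 2 at a coverage of 20 (13.6%) and 1 to 2 with a library left out (18.3% to 22.9%). For 5hmC, 1 member higher in every DMM sample at 12 weeks became 2 at a coverage of 20 (10% of all genes) and 1 to 4 with a library left out (16.1% to 21.9%), and 0 at 4 weeks became 0 to 7 (7 without control replicate 2, against 23.5% of all genes).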

Other observations

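The other WNT pathway genes were also compared between the weeks, where more transcripts of all kinds were called than between the limbs. In control cartilage 102 were tested, of which edgeR called 16 lower and 1 higher at 12 weeks (DESeq2, 24 and 2), with a median log2 fold change of -0.40, where 5.69% of all transcripts were called in edgeR and 13.9% in DESeq2. The lower genes included the signal amplifier Rspo2 (-2.38, edgeR adjusted p = 0.00545), the Frizzled receptor genes Fzd8 (-3.19), Fzd9 (-1.91) and Fzd4 (-1.15), the R-spondin receptor gene Lgr4 (-1.28) and the ligand Wnt4 (-1.85), and Myc (1.07) was the higher one. In DMM cartilage 17 of 102 were called higher and 12 lower, where 23.6% of all transcripts were called. Rspo2 was lower there too (-1.80, edgeR adjusted p = 0.00333), whereas the Dishevelled genes Dvl2 (1.30) and Dvl3 (1.26), the corepressor genes Tle2 (1.89) and Tle3 (0.98) and the LRP5 and LRP6 inhibitor Sost (1.55) were higher. Among the lower genes in DMM were Ndp (-2.35), Dkk2 (-2.14) and Wls (-0.76). These genes were chosen after their values were seen. The sources used here do not say whether the libraries of both weeks were made together. In the test of the limb by week interaction edgeR called 0 of the 102 genes (DESeq2, 0), with 22 more positive and 1 more negative at 12 weeks at an unadjusted p under 0.05, against 12.3% of all transcripts in either direction.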
